A study of Mus musculus with 6 samples.

Results

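The cytokine gene Il9 and the gene of its receptor chain, Il9r, are 2 of the 23183 genes listed for each library. They were chosen by name, as the rows Il9 and Il9r of the gene symbol column. The libraries hold RNA of wild-type mouse lung ILC2 (group 2 innate lymphoid cells), a lymphocyte type without antigen receptors that secretes type 2 cytokines. The cells were cultured for 24 h with interleukins 2, 7 and 33, each at 10 ng/ml, together with DTA-1, an agonist antibody against the costimulatory receptor GITR (3 libraries), or with an IgG2b isotype control antibody (3 libraries). Both groups therefore carry the 3 cytokines, and no library of resting or freshly isolated cells was analysed here. Age, sex, strain and the number of animals behind a library are not stated in the labels, so p-values refer only to the scatter among these libraries, and that scatter may be technical.

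Interleukin 9 is a secreted growth and survival factor for mast cells and for ILC2 themselves, best known from helminth infection and allergic airway inflammation. It binds a receptor made of the IL-9 receptor chain and the common gamma chain (Il2rg), which is shared with the receptors of interleukins 2, 4, 7, 15 and 21. The receptor signals through the kinases JAK1 and JAK3 to STAT3 and STAT5. In lung ILC2 the cytokine is made in short bursts after activation by interleukin 33 and acts back on the cells that make it. In T cells, transcription of the gene is known to depend on IRF4, PU.1, BATF, STAT5, STAT6 and NF-kB, and GITR ligation is known to favour it.

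In GRCm38 (mm10), GENCODE release M21 places Il9 (ENSMUSG00000021538.3) on the minus strand of chromosome 13, from 56479277 to 56482246, with 1 annotated transcript of 536 bases in 5 exons. Il9r (ENSMUSG00000020279.10) lies on the minus strand of chromosome 11, from 32187541 to 32200279, with 5 annotated transcripts, which the single value per gene does not tell apart. The upstream promoter sequences are shown because these are the stretches next to each start site where the factors named above could bind. They are the 250 bases before the RefSeq start of each gene (GRCm38.p6, 5′ to 3′ on the gene's strand), chr13:56482258-56482507 for Il9 and chr11:32200280-32200529 for Il9r, with every match to the motifs described next in capitals.
Il9: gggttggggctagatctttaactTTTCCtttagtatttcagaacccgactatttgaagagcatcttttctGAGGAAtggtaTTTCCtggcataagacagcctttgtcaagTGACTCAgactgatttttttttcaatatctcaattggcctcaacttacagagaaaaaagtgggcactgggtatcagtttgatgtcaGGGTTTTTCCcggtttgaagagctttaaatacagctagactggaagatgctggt
Il9r: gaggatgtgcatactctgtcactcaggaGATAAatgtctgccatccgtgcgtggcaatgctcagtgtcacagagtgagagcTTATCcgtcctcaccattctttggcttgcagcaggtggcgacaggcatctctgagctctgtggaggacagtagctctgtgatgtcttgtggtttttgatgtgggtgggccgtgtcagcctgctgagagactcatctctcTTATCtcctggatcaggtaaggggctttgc

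The letters searched, on both strands, were TGANTCA for AP-1 and BATF, TTCNNNGAA for STATs, GGAAA for NFAT, GATAA for GATA factors, GAGGAA for PU.1 and ETS factors, the paired-GAAA motif of IRFs, the NF-kB consensus, and a T-rich variant of the NF-kB consensus. The variant was added after the Il9 sequence had been read. The Il9 window held 1 AP-1 match, TGACTCA, at -140 to -134 from the start, a sequence class present in 6.75% of the 32851 promoter windows of the same length. It held 1 PU.1 and ETS match at -180 to -175 (23.2% of windows) and 3 NFAT matches (55.6% of windows). The stretch GGGTTTTTCC at -54 to -45 matched the T-rich NF-kB variant, found in 1.41% of windows, and contains the NFAT match nearest to the start. The NF-kB consensus itself (7.25% of windows), the STAT letters (7.02%) and the IRF motif (2.98%) were not found in either window. For STATs only TTCNNNGAA was searched, so pairs of TTC and GAA at another spacing were not looked for. The Il9r window held 3 GATA matches (22.6% of windows have at least 1), which the Il9 window lacked, and no match to any other motif searched. A match is a description of the letters and not evidence of binding.

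The libraries had totals of 574195 to 606724 in values taken as FPKM (fragments scaled to transcript length and to library size), with 14586 to 14939 genes at values over 0. Depth, estimated from the spacing of the lowest values, was about 19000000 to 20600000 fragments per library. All 15 ILC2 markers, among them Gata3, Il1rl1, Icos and Il2ra, were at 1 FPKM or more in every library. Their summed level was 2326 to 2599 FPKM in the DTA-1 libraries and 2815 to 3147 FPKM in the isotype libraries, led by Il2ra. Klrg1, Il1rl1 and Arg1 were lower with DTA-1 without overlap, as 10.5% of all tested genes were. Ptger2 was higher without overlap, as 11.2% of all tested genes were, and the other ILC2 markers overlapped between the groups. Libraries of a group differed by far more than counting error. The chi-square per gene was 46.3 and 55.6 between DTA-1 replicate 1 and the other DTA-1 libraries and 11.9 between DTA-1 replicates 2 and 3. It was 56.8 to 131 among the isotype libraries. DTA-1 replicate 1 stands apart from its group in several genes below, and values without it are given for Il9, its ratios, Fbxl21, Stat5b, Stat6 and Cish.

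Il9 was more abundant in each DTA-1 library than in any isotype library. It measured 8425, 3151 and 2868 FPKM in DTA-1 replicates 1, 2 and 3, against 222, 483 and 529 FPKM in isotype replicates 1, 2 and 3. The groups did not overlap, as for 11.2% of all tested genes in this direction. The ratio of a DTA-1 library to an isotype library lay between 5.425 and 37.9 over all 9 pairs. DTA-1 replicate 1 was 2.94 times as high as DTA-1 replicate 3, and isotype replicate 1 was the lowest library of all. The means were 4814 ± 3130 FPKM with DTA-1 and 411 ± 165 FPKM with the isotype (SD, n = 3 each). In bulk RNA, more cells that make the transcript and more transcript per cell cannot be told apart.

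The log2 fold change of Il9 on the log2(FPKM + 1) scale was 3.46 ± 0.45 (SE), with a 95% interval of 2.42 to 4.50, or 11.0-fold with an interval of 5.35-fold to 22.6-fold. It was second among the 10501 tested genes by log2 fold change, behind Snora69, a small nucleolar RNA gene listed at 0 in each isotype library. By limma the unadjusted p was 5.32e-05, the seventh smallest, and the adjusted p over all genes was 0.0648, so Il9 did not pass the threshold of 0.05. The adjusted threshold was passed by 4 genes (0.0381% of those tested). The residual SD of Il9 between libraries of a group was 0.78 on the log2 scale, against a median of 0.18 over all tested genes, and 43 genes had a larger one. Without DTA-1 replicate 1 the log2 fold change was 2.96 (limma adjusted p = 0.111). The exact 2-sided permutation test over samples gave p = 0.1, the smallest p that 3 against 3 libraries allow. At the estimated depth the lowest library still held about 2320 fragments of Il9, a counting error of 2.1%, so counting error was a small part of the spread.

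**Figure D1:**
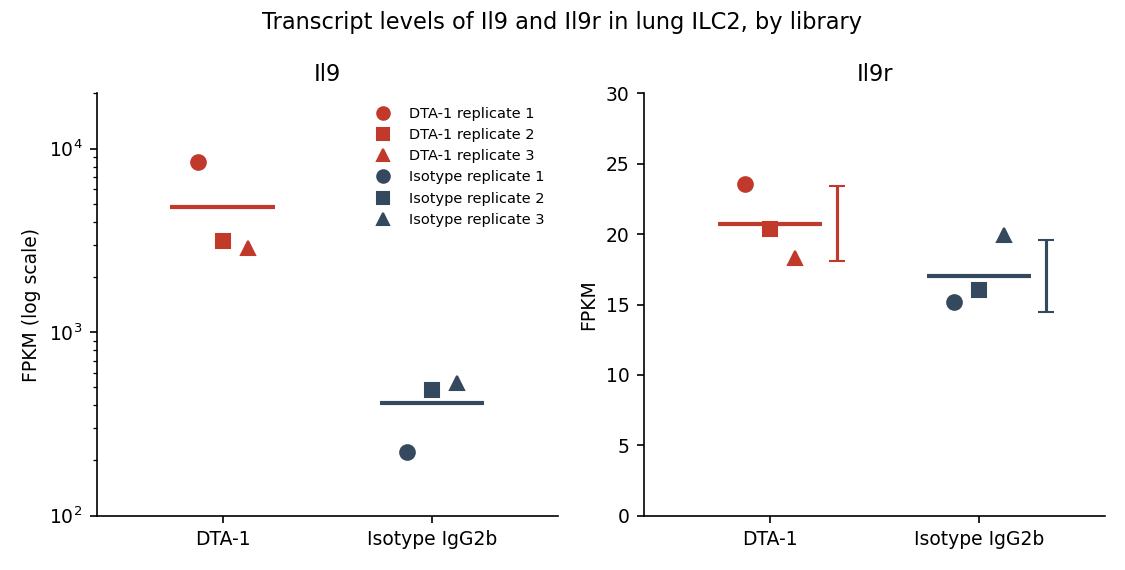
Levels of Il9 (left, log axis) and Il9r (right, linear axis from 0) in FPKM, with 1 symbol per library, horizontal lines at group means and, for Il9r, bars of 1 SD. The 3 DTA-1 libraries lie at 2868 FPKM or more for Il9 and the 3 isotype libraries at 529 or less, while the groups overlap for Il9r.

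Ranked among all 23183 genes, Il9 was the single most abundant transcript of DTA-1 replicate 1, ahead of the ribosomal protein gene Rpl41 at 6073 FPKM. It held ranks 16 and 20 in DTA-1 replicates 2 and 3. In isotype replicates 1, 2 and 3 it held ranks 338, 163 and 144 of 23183. By group means it was at rank 6 with DTA-1 and rank 179 with the isotype. The 5 genes above it in the DTA-1 mean were Rpl41, Il13, Snord47, Rplp1 and Tmsb4x, and Snord47 was listed at 0 in DTA-1 replicate 1 and in the isotype libraries. As a share of all FPKM, Il9 took 1.39%, 0.525% and 0.493% in DTA-1 replicates 1, 2 and 3, against 0.0383%, 0.0811% and 0.0921% in isotype replicates 1, 2 and 3. The share rests on FPKM, which are per length, and so counts transcripts rather than bases.

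**Figure D2:**
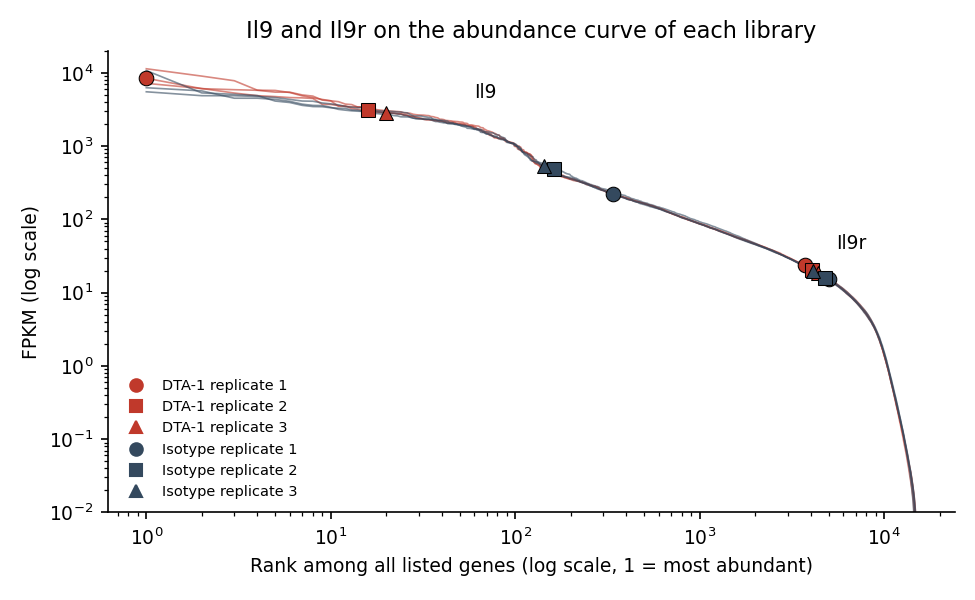
FPKM (log axis) against rank among all listed genes (log axis) for each of the 6 libraries, with the positions of Il9 and Il9r as 1 symbol per library. Il9 lies at ranks 1, 16 and 20 in the DTA-1 libraries and at ranks 144 to 338 in the isotype libraries, while Il9r stays between ranks 3711 and 5050.

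Relative to Il13 and Il5, too, Il9 was higher in each DTA-1 library than in any isotype library. Il13, which drives mucus production, and Il5, the eosinophil growth factor, are the main type 2 cytokine genes of these cells. For every 100 FPKM of Il13 there were 143, 54.4 and 62.5 FPKM of Il9 in DTA-1 replicates 1, 2 and 3, against 10.3, 24.4 and 18.6 in isotype replicates 1, 2 and 3. For every 100 FPKM of Il5 there were 362, 85.5 and 81.0 FPKM of Il9 in DTA-1 replicates 1, 2 and 3, against 14.2, 18.8 and 22.3 in isotype replicates 1, 2 and 3. Neither ratio overlapped between the groups, and a ratio within a library does not depend on how libraries are scaled to each other. The log2 ratio of Il9 to Il13 was 2.23 higher with DTA-1, and that of Il9 to Il5 was 2.90 higher (exact permutation p = 0.1 for each, the smallest possible). Without DTA-1 replicate 1 the differences were 1.80 and 2.20.

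Il13 itself measured 5422 ± 720.0 FPKM with DTA-1 and 2326 ± 453 FPKM with the isotype (SD, n = 3 each; log2 fold change 1.23, limma adjusted p = 0.0663). When ordered by level with a list of 20 other cytokines of ILC2, Il9 was the first in DTA-1 replicate 1 and the third in DTA-1 replicates 2 and 3. It was the third in isotype replicates 2 and 3 and the fourth in isotype replicate 1. Of the 16 other cytokines tested, 9 had an unadjusted p under 0.05 and were higher with DTA-1, where 6.22% of all tested genes did so, and 1 was lower, where 7.73% of all genes did so. None passed over all genes. The median log2 fold change of the 16 was 0.46, against 0.014 over all tested genes.

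**Figure D3:**
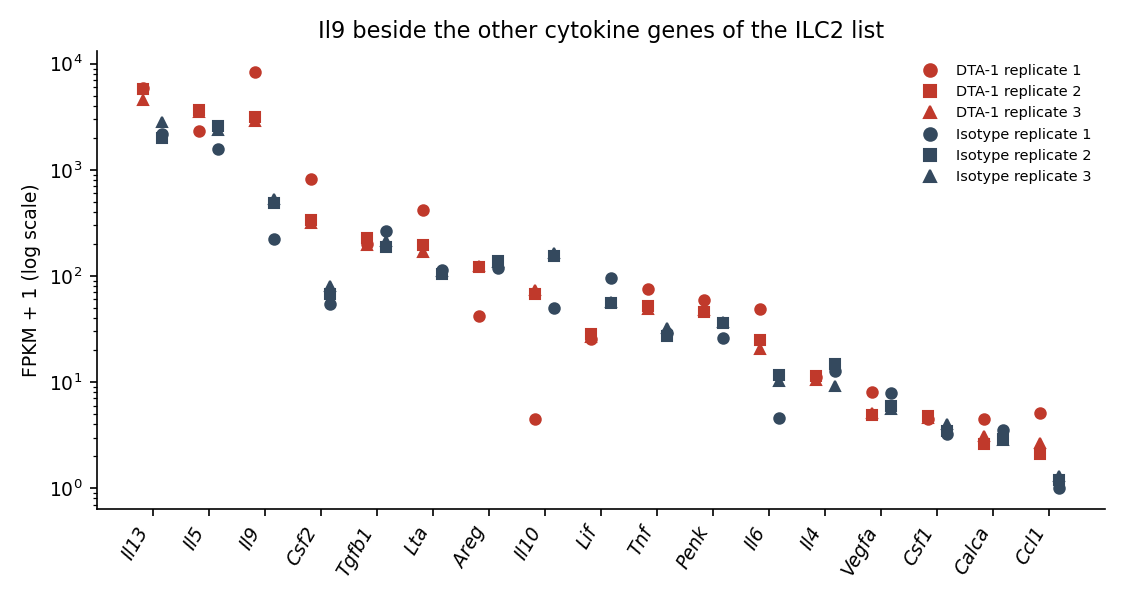
FPKM + 1 (log axis) of Il9 and the 16 tested cytokine genes of the ILC2 list, ordered by mean over all libraries, with DTA-1 symbols on the left and isotype symbols on the right of each gene. Il9 stands after Il13 and Il5 with a wider gap between the groups than either.

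Il9r was expressed at a moderate level in both groups. It measured 23.6, 20.4 and 18.3 FPKM in DTA-1 replicates 1, 2 and 3, against 15.2, 16.0 and 19.9 FPKM in isotype replicates 1, 2 and 3. The groups overlapped, since isotype replicate 3 lay above DTA-1 replicate 3. The means were 20.8 ± 2.67 FPKM with DTA-1 and 17.03 ± 2.53 FPKM with the isotype (SD, n = 3 each). The log2 fold change was 0.27 ± 0.15 (SE), with a 95% interval of -0.064 to 0.61, or 0.956-fold to 1.53-fold (limma adjusted p = 0.466; exact permutation p = 0.2). No difference was detected with these libraries, and the interval does not show that the receptor gene was equal between the groups. The residual SD of 0.19 was close to the median gene's 0.18, and the lowest library held about 460 fragments on the shortest coding transcript, a counting error of 4.7%.

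The receptor gene ranked between 3711 and 4407 in the DTA-1 libraries and between 4119 and 5050 in the isotype libraries. Among 11 receptor genes of the gamma-chain cytokines and their relatives it held the seventh place in each of the 6 libraries. Above it stood Il2ra (1216 ± 122 FPKM with DTA-1 and 1425 ± 251 with the isotype), Il2rg, Il2rb, Il4ra, Il7r and Crlf2, the receptor chain for TSLP. Crlf2 measured 29.7 ± 2.48 FPKM with DTA-1 and 32.6 ± 11.8 FPKM with the isotype, and lay above Il9r in each library. Below it stood Il21r (10.8 ± 2.38 FPKM with DTA-1 and 11.5 ± 1.41 with the isotype) and Il15ra, while Il13ra1 and Il13ra2 were listed at 0 in all libraries. Of the other ligand genes of the family, Il4 measured 10.0 ± 0.508 FPKM with DTA-1 and 11.2 ± 2.80 with the isotype and overlapped, while Il2, Il7, Il15 and Il21 were under 1 FPKM in each library and were not tested. Il9 exceeded its receptor gene 357-, 154- and 157-fold in FPKM in DTA-1 replicates 1, 2 and 3, against 14.7-, 30.1- and 26.6-fold in isotype replicates 1, 2 and 3.

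Of the 16 genes listed for IL-9 receptor signalling, 15 were tested. Of these, 4 had an unadjusted p under 0.05 and were higher with DTA-1 (6.22% of all tested genes) and 1 was lower (7.73% of all tested genes), and none passed over all genes. Il2rg, the shared gamma chain, measured 470, 467 and 433 FPKM in DTA-1 replicates 1, 2 and 3, against 313, 356 and 380 FPKM in isotype replicates 1, 2 and 3. The groups did not overlap, as for 11.2% of all tested genes in this direction (log2 fold change 0.39 ± 0.12, limma adjusted p = 0.188). Stat5a, which encodes a main transducer of the receptor, measured 89.5, 71.1 and 64.5 FPKM in DTA-1 replicates 1, 2 and 3, against 43.6, 38.9 and 48.3 FPKM in isotype replicates 1, 2 and 3 (log2 fold change 0.76 ± 0.15, limma adjusted p = 0.101). Its highest library was again DTA-1 replicate 1. Stat5b, its close relative, measured 60.8 ± 13.0 FPKM with DTA-1 and 44.7 ± 1.85 with the isotype. Its log2 fold change was 0.42, and 0.25 without DTA-1 replicate 1 (limma adjusted p = 0.282 and 0.615). The lower gene was Grb2, at 88.0 ± 9.54 FPKM with DTA-1 and 114 ± 19.8 with the isotype (log2 fold change -0.36, limma adjusted p = 0.339). Jak1, Jak3 and Stat3 overlapped between the groups, with log2 fold changes of 0.19, 0.10 and 0.16, and the median of the 15 was 0.10.

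Genes that gamma-chain receptors and STAT proteins are known to induce lay on both sides. Of 15 tested, 5 had an unadjusted p under 0.05 and were higher with DTA-1 and 2 were lower, beside 6.22% higher and 7.73% lower among all tested genes. None passed over all genes, and the median log2 fold change was 0.14. Cish, a feedback inhibitor induced by STAT5, measured 213 ± 58.1 FPKM with DTA-1 and 137 ± 24.5 with the isotype (log2 fold change 0.62, limma adjusted p = 0.249), and its log2 fold change was 0.41 without DTA-1 replicate 1. The survival gene Bcl2l1 measured 107 ± 6.38 FPKM with DTA-1 and 61.2 ± 17.7 with the isotype (0.83, limma adjusted p = 0.140). The cyclin gene Ccnd2 measured 308 ± 14.2 FPKM with DTA-1 and 194 ± 41.6 with the isotype (0.69, limma adjusted p = 0.141). Myc and Lta were the other higher ones. Socs3, a feedback inhibitor induced by STAT3, measured 24.7 ± 3.29 FPKM with DTA-1 and 36.8 ± 8.58 with the isotype (-0.54, limma adjusted p = 0.226), and the granzyme gene Gzmb measured 1.06 ± 0.766 FPKM with DTA-1 and 3.53 ± 0.751 with the isotype. Bcl3, an atypical inhibitor of NF-kB that IL-9 induces in T and mast cells, overlapped at 28.8 ± 6.95 FPKM with DTA-1 and 47.6 ± 30.3 with the isotype (log2 fold change -0.54, and -0.062 without isotype replicate 1). Pim1 overlapped too, at 158 ± 13.7 and 164 ± 41.6 FPKM with DTA-1 and the isotype. Interleukins 2 and 7 in the medium use the same transducers, so these genes do not separate signals of IL-9 from theirs.

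**Figure D4:**
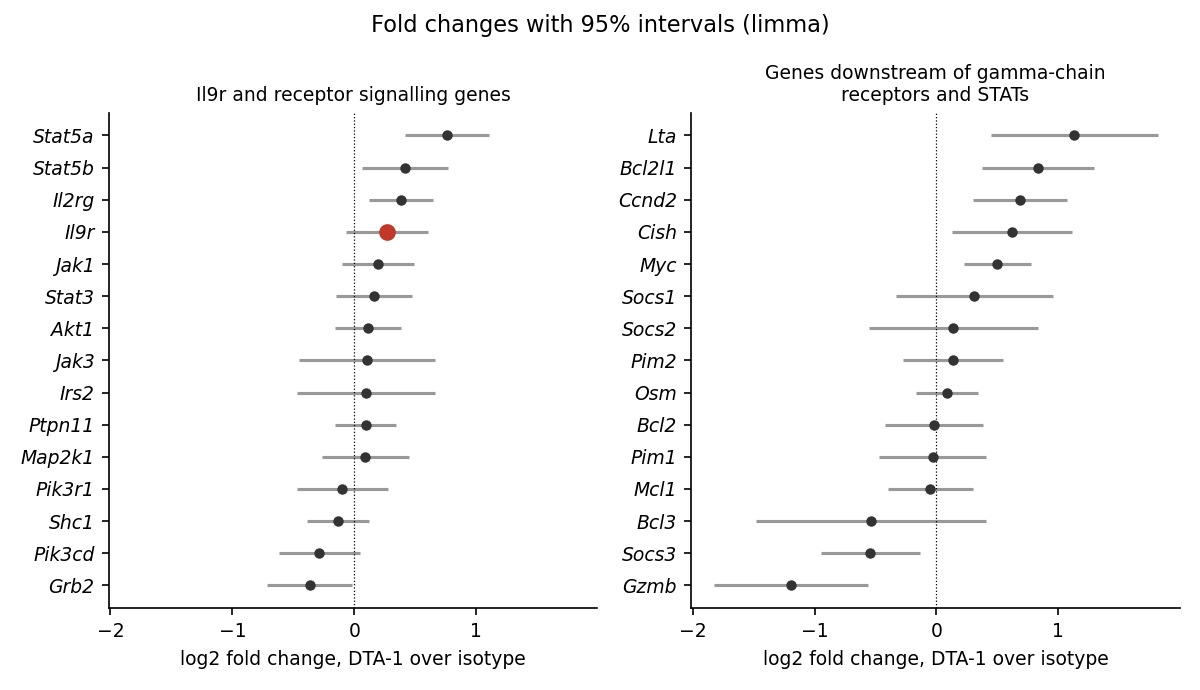
log2 fold changes of DTA-1 over isotype with 95% intervals from limma, for Il9r (red) with 14 of the 15 tested receptor signalling genes (left) and for 15 tested genes induced downstream of gamma-chain receptors and STATs (right). The interval of Il9r spans 0. Those of Stat5a, Stat5b and Il2rg lie above 0 and that of Grb2 lies below 0, though none of these genes passed over all genes.

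Of 43 genes known to regulate Il9 transcription, mostly from T cells, 41 were tested. With DTA-1, 9 were higher and 3 lower at an unadjusted p under 0.05, where all tested genes gave 6.22% and 7.73%, so that the lower ones were close to the share over all genes. None passed over all genes, and the median log2 fold change was 0.073. Irf4, a factor required for Il9 transcription, measured 252, 234 and 227 FPKM in DTA-1 replicates 1, 2 and 3, against 162, 166 and 198 FPKM in isotype replicates 1, 2 and 3. The groups did not overlap, as for 11.2% of all tested genes in this direction (log2 fold change 0.44 ± 0.12, limma adjusted p = 0.163). Batf, its AP-1 partner, was lower in each DTA-1 library and measured 170, 183 and 186 FPKM in DTA-1 replicates 1, 2 and 3, against 223, 287 and 227 FPKM in isotype replicates 1, 2 and 3 (log2 fold change -0.44 ± 0.13, limma adjusted p = 0.186). Such a gap downward was seen for 10.5% of all tested genes.

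Spi1, which encodes PU.1, lay below 0.1 FPKM in each library and was not tested. Bhlhe40, a helix-loop-helix regulator of cytokine genes, measured 124 ± 27.4 FPKM with DTA-1 and 63.8 ± 11.5 with the isotype (log2 fold change 0.94, limma adjusted p = 0.101), and the NF-kB subunit gene Rel measured 8.96 ± 0.873 and 5.21 ± 0.562 FPKM with DTA-1 and the isotype. Relb, a subunit of the non-canonical NF-kB branch, measured 47.9 ± 9.27 FPKM with DTA-1 and 32.6 ± 4.16 with the isotype. Stat6, the transducer of interleukin 4, measured 41.7 ± 11.0 FPKM with DTA-1 and 30.3 ± 2.72 with the isotype, a log2 fold change of 0.42 that was 0.22 without DTA-1 replicate 1 (limma adjusted p = 0.349 and 0.700). Ets1, a lymphocyte transcription factor gene, was lower in each DTA-1 library than in any isotype library, as 10.5% of all tested genes were. It measured 49.7 ± 4.93 FPKM with DTA-1 and 87.5 ± 14.2 with the isotype (log2 fold change -0.80, limma adjusted p = 0.0923). Gata3, the type 2 master regulator, overlapped at 179 ± 13.5 FPKM with DTA-1 and 165 ± 47.1 with the isotype, as did Nfkb1, Smad3 and Etv5.

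Among genes close to the GITR receptor, 3 of 14 tested had an unadjusted p under 0.05 and were higher with DTA-1 (6.22% of all tested genes) and none was lower (7.73% of all tested genes). None passed over all genes, with a median log2 fold change of 0.12. Traf6, an adaptor through which GITR is known to act on Il9 in T cells, measured 28.0, 20.3 and 20.6 FPKM in DTA-1 replicates 1, 2 and 3, against 16.5, 15.6 and 15.2 FPKM in isotype replicates 1, 2 and 3. The groups did not overlap, as for 11.2% of all tested genes in this direction (log2 fold change 0.50 ± 0.14, limma adjusted p = 0.179). The highest library was DTA-1 replicate 1. Traf1 and the ubiquitin ligase gene Birc3 were the other members, with log2 fold changes of 0.67 and 0.45. Tnfrsf18, the gene of GITR, measured 256, 183 and 169 FPKM in DTA-1 replicates 1, 2 and 3, against 188, 138 and 185 FPKM in isotype replicates 1, 2 and 3, and overlapped. Its ligand gene Tnfsf18 was below 0.1 FPKM in each library.

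Of the 6 genes read around Il9, only Fbxl21 passed the filter on low values. Fbxl21, an F-box gene of the circadian clock, lies 40226 bases from Il9 on the opposite strand, so that the pair diverges. It measured 15.7, 6.17 and 5.26 FPKM in DTA-1 replicates 1, 2 and 3, against 0.783, 2.04 and 1.62 FPKM in isotype replicates 1, 2 and 3. The groups did not overlap, as for 11.2% of all tested genes in this direction. The libraries with the highest and the lowest value were the same as for Il9. Its log2 fold change was 1.91 ± 0.36 (limma adjusted p = 0.0956) and depended on the pseudocount, at 2.45 with 0.1 and 1.04 with 5 added to the FPKM. Without DTA-1 replicate 1 it was 1.47 (limma adjusted p = 0.182).

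The other genes flanking Il9 were at or near 0. Slc25a48, a carrier gene 5038 bases away on the other side, reached 0.276 FPKM at most and Lect2 0.294 FPKM at most. Cxcl14 was listed at 0 in all libraries, Gm10782 reached 0.0376 FPKM at most and Tgfbi 0.361 FPKM at most. Near Il9r, Snrnp25, a spliceosome gene that starts 5136 bases away, measured 29.2 ± 2.65 FPKM with DTA-1 and 35.6 ± 7.84 with the isotype and overlapped between the groups. Nprl3, a regulator of mTORC1, measured 8.81 ± 1.01 and 7.38 ± 1.95 FPKM with DTA-1 and the isotype, and also overlapped. The 3 genes on the other side of Il9r were at or near 0, as was Rhbdf1, which reached 1.03 FPKM at most.

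Profiles most like that of Il9 were sought by the root mean square distance between log2(FPKM + 1) values over the 6 libraries, each gene centred on its own mean, among 8135 tested genes with a mean of at least 5 FPKM. The nearest was Csf2, the gene of the cytokine GM-CSF, at a distance of 0.45. It measured 809.6, 338 and 313 FPKM in DTA-1 replicates 1, 2 and 3, against 53.6, 67.2 and 78.5 FPKM in isotype replicates 1, 2 and 3. Next came the activation marker Cd83 (0.73), Fbxl21 (0.80), the cytokine gene Il6 (0.82) and Snora69 (0.87). In each of these 5 genes DTA-1 replicate 1 was the highest library, and in all but Snora69 isotype replicate 1 was the lowest. The genes were picked for nearness to Il9 in these same libraries, so a shared order of libraries is not a separate result. The measure depends on the size of the gap between the groups, in which Il9 was second.

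For Il9r the same search among 10431 tested genes with a mean of at least 1 FPKM gave Lman2l, Gpr108, Pithd1, Rbfa and Apbb2, at distances of 0.025 to 0.049. Lman2l, a lectin gene of the secretory pathway, measured 8.74 ± 0.968 FPKM with DTA-1 and 7.01 ± 1.02 with the isotype. Rbfa and Apbb2 were higher with DTA-1 without overlap, as 11.2% of all tested genes were, whereas Il9r, Lman2l, Gpr108 and Pithd1 overlapped.

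**Figure D5:**
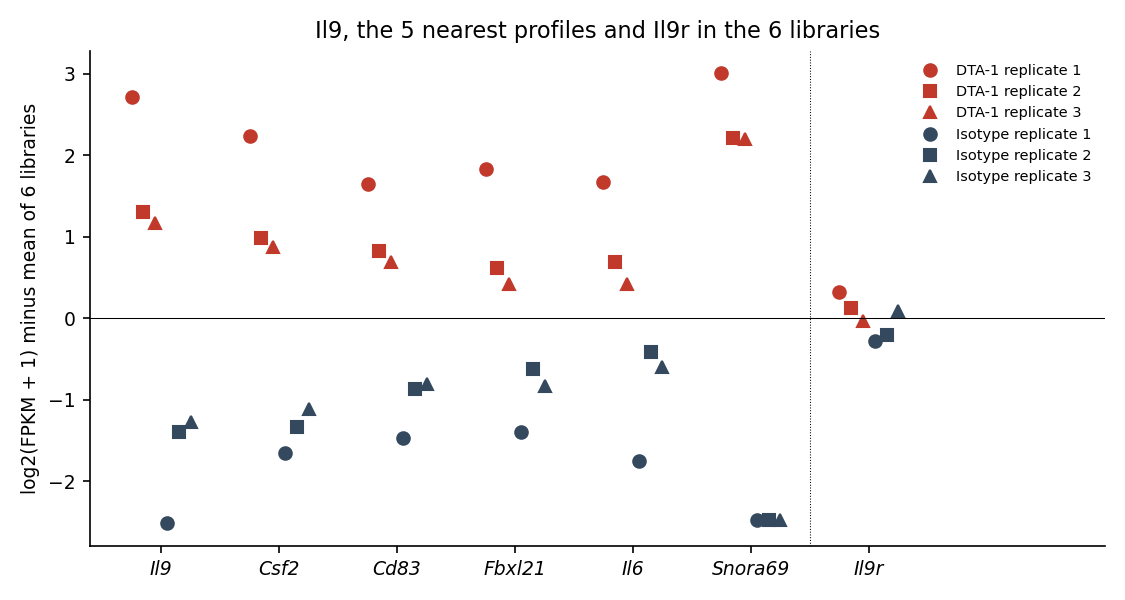
log2(FPKM + 1) of each gene minus its mean over the 6 libraries, for Il9, its 5 nearest profiles and, right of the dotted line, Il9r, with 1 symbol per library. DTA-1 replicate 1 is the highest library for Il9 and for its 5 nearest genes, which were picked for nearness to this profile. The symbols of Il9r stay close to 0.

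Mast cells and T cells also make Il9 or its receptor, so their markers were read in the same libraries. Of 12 mast cell markers, 10 stayed below 1 FPKM in all libraries, with Mcpt1 and Mcpt4 at 0 throughout. The remaining 2 were Tpsab1, at 1.19 FPKM in DTA-1 replicate 1 and at 0 in the other libraries, and Kit. The 12 markers summed to 6.85 to 12.4 FPKM in the DTA-1 libraries and 7.80 to 16.8 FPKM in the isotype libraries, most of it Kit, which ILC2 can express. Of 10 T cell markers, 7 stayed below 1 FPKM, and the sum was 13.0 to 13.8 FPKM in the DTA-1 libraries and 19.8 to 22.2 FPKM in the isotype libraries, led by Cd3g. The part of these cells in the level of Il9 was not tested. Markers of erythroid cells, whose globin genes lie near Il9r, summed to 0.582 to 1.57 FPKM in the DTA-1 libraries and 1.01 to 1.22 FPKM in the isotype libraries. The summed level of each other marker list (B cells, NK cells and ILC1, ILC3, eosinophils, macrophages, neutrophils, lung epithelium and stroma) was at most 46.7 FPKM in any library, most of it Pecam1 in the last list.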

How the data were processed

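Per the labels' protocols, RNA was taken up in Trizol and made into libraries with a directional NEBNext kit. TopHat and mm10 are named in the submitters' processing notes. The authors deposited 1 FPKM value per gene and library, a reading made here from the values, since the files name no unit: totals differ between libraries and low values come in steps inversely proportional to transcript length. Depth was estimated from those steps. The quantification program, annotation and strand setting were not given in the sources. Treatment tags of replicates 2 and 3 carry running numbers that disagree with the titles, so groups were taken from the titles.

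The filter kept 10501 genes that reached 1 FPKM in 3 or more libraries. limma 3.58.1 (R 4.3.3) was fitted to log2(FPKM + 1), 2-sided, with trended, robust empirical Bayes and Benjamini-Hochberg adjustment over all tested genes (threshold 0.05). The pseudocount shrinks fold changes of low genes. Single values had an exact permutation test. The procedure was tested on simulated data. Members and lists were chosen with earlier results of these data known. The naming rule took the members, their 5 nearest profiles, up to 10 genes above Il9, 3 neighbours on each side, fixed pathway genes and the 4 of smallest p per list; other named genes were chosen after their values were seen. Promoters came from RefSeq (both members matched), loci from GENCODE M21. 1 gene of the receptor signalling list is counted but not reported here.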

Additional observations from a re-analysis of the deposited data

How the results depend on the processing

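Il9 stayed higher with DTA-1 under all 16 alternatives tried. Its log2 fold change lay between 2.86 and 3.74, and between 2.96 and 3.74 with 1 library left out in turn (limma adjusted p 0.0781 to 0.168). It passed the threshold only with library quality weights (2.86, limma adjusted p = 0.0132), which gave DTA-1 replicates 1, 2 and 3 weights of 0.5, 5.95 and 1.71 and isotype replicates 1, 2 and 3 weights of 0.423, 0.263 and 1.77, so that DTA-1 replicate 2 weighed most. Il9r stayed at 0.11 to 0.38 without passing, and at 0.18 to 0.38 with 1 library left out. The log2 ratio of Il9 to Il13 differed by 1.80 to 2.50 and that of Il9 to Il5 by 2.20 to 3.28 with 1 library left out, at exact permutation p = 0.2, the smallest then possible. The count of genes past the threshold, 4, was 2 without the filter on low values, 475 with quality weights and 1 to 3 with 1 library left out (1 without DTA-1 replicate 2, DTA-1 replicate 3 or isotype replicate 3, 2 without DTA-1 replicate 1). The cause was not tested. Whether replicate numbers pair the samples could not be settled. Deviations of same-numbered libraries from their group means correlated at 0.393, -0.101 and -0.129. Each replicate 1 library correlated most with the replicate 1 library of the other group. DTA-1 replicate 2 correlated most with isotype replicate 3 (0.385), and DTA-1 replicate 3 with isotype replicate 2 (0.485, the highest of all pairs). Deviations from the mean of so small a group are not independent of each other, so these correlations cannot decide it. With the replicate block 185 genes passed, Il9 did not (3.46, limma adjusted p = 0.125), and the ratios had an exact sign-flip p of 0.25, the smallest possible.

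Of 51 other named genes with a fit, 7 changed direction under some alternative. With quality weights these were Il4 (0.14), Rpl41 (-0.039) and Rplp1 (-0.021). With 1 library left out in turn, Il4 lay between -0.31 and 0.028, Jak3 between -0.20 and 0.26, Gata3 between -0.072 and 0.35, Smad3 between -0.19 and 0.014, Pim1 between -0.25 and 0.12, and Rplp1 between -0.010 and 0.22. Several passed the threshold only under an alternative. With quality weights these were 19 genes, among them Csf2, Cd83, Fbxl21, Il13, Il5, Stat5a, Bcl2l1, Ccnd2, Bhlhe40, Ets1 and Traf1. In that setting 475 of all 10501 tested genes passed. With the replicate block they were 6 genes (Csf2, Cd83, Il13, Lif, Tnf and Bhlhe40, limma adjusted p 0.0327 to 0.0404), where 185 of all 10501 tested genes passed. Without DTA-1 replicate 1 it was only Csf2 (2.29, limma adjusted p = 0.0188). Part of the named genes was picked for a small p or for nearness to Il9 in these same libraries, so these counts are not a separate result. Depth did not limit Il9, while genes near 0 such as Spi1 and the flanking genes are read from few fragments.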
